A study of Mus musculus with 3 samples.

Results

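The dual-specificity MAP kinase phosphatases described here are 10 genes, Dusp1, Dusp2, Dusp4, Dusp5, Dusp6, Dusp7, Dusp8, Dusp10, Dusp14 and Dusp16. They were chosen by symbol, without use of their levels, from 55536 annotated genes, and all 10 were found, with 34 annotated transcripts between them. RNA was taken from the chromatin fraction of bone marrow-derived macrophages (BMDM) of C57BL/6J mice, depleted of ribosomal RNA and sequenced as total RNA. Chromatin-bound RNA holds transcripts that are being made or have not yet left the gene, so introns are still present in much of it. The study has 1 group of 3 biological replicates. All libraries came from cells that received lipid A at 100 ng/ml for 12 h, were washed and kept without it for 12 h, and then received lipid A at 100 ng/ml again for 30 min. Lipid A is the membrane anchor of bacterial lipopolysaccharide and acts through a Toll-like receptor on macrophages. The labels give separate biosamples but a single donor identifier, so the p-values measure the spread between these samples, which may be technical. They give neither the age nor the sex of the mice. No library without the second exposure was analysed here, so the values below are levels and not responses to lipid A.

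Dual-specificity phosphatases of this family remove phosphate from the threonine and the tyrosine in the activation loop of a MAP kinase, and so switch the kinase off. Many of the genes are themselves switched on by MAP kinase signalling, which makes them feedback inhibitors. In macrophages some of them, such as Dusp1, are known to limit the kinase activity and cytokine output that follow Toll-like receptor signals. By location and preferred substrate, Dusp1, Dusp2, Dusp4 and Dusp5 encode inducible nuclear enzymes, Dusp6 and Dusp7 encode cytoplasmic enzymes that prefer the kinase ERK, and Dusp8, Dusp10 and Dusp16 encode enzymes that prefer the stress kinases JNK and p38. Dusp14 encodes a small atypical member that lacks the kinase-binding domain of the others.

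The sequences that matter most for the measurements are the ends of 3 introns, because a large share of the reads of Dusp1 and Dusp2 was assigned to annotated transcripts that keep one of these introns. Each line below gives 20 bases of exon and 40 bases of intron at one end of an intron, 5′ to 3′ on the gene's strand, with the GT that opens the intron or the AG that closes it in capitals. They were read from the annotated transcripts of build mm10. Intron 2 of Dusp1, kept in Dusp1-203, lies at chr17:26507205-26507573 on the minus strand (369 bases). Intron 3 of Dusp1, kept in Dusp1-204, lies at chr17:26506651-26506984 on the minus strand (334 bases). Intron 2 of Dusp2, kept in Dusp2-202, lies at chr2:127336899-127337248 on the plus strand (350 bases). Each gene has 3 introns in its leading coding transcript, and each of these introns lies between coding exons.
Dusp1 intron 2, start: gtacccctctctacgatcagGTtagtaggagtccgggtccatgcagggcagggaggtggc
Dusp1 intron 2, end: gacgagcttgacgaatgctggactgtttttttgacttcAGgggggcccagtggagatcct
Dusp1 intron 3, start: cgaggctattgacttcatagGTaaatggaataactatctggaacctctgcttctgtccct
Dusp1 intron 3, end: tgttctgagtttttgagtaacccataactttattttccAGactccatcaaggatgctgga
Dusp2 intron 2, start: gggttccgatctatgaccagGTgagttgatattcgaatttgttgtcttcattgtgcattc
Dusp2 intron 2, end: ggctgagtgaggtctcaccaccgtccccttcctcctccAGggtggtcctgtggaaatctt

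The promoters of Dusp1, Dusp2, Dusp5 and Dusp8 are shown because Dusp1 and Dusp2 had the highest levels and because Dusp1, Dusp5 and Dusp8 hold the CRE and CArG motifs described below. RefSeq promoter sequences of build GRCm38.p6 matched 9 of the 10 members, all but Dusp4, and the part that lies before the first annotated exon is printed, 5′ to 3′ on the gene's strand. Capitals mark the cAMP response element (CRE) TGACGTCA, its first part TGACG on either strand, and the CArG box bound by serum response factor.
Dusp1, chr17:26508520-26508722, minus strand: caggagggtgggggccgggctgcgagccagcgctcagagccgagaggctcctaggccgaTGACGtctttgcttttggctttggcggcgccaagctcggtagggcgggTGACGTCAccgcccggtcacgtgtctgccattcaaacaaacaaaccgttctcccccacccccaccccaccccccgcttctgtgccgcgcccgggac
Dusp2, chr2:127335909-127336158, plus strand: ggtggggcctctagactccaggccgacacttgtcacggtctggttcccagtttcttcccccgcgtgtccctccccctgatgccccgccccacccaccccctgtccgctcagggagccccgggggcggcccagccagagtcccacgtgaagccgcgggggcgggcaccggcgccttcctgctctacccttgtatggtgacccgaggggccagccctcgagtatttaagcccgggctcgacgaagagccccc
Dusp5, chr19:53528895-53529108, plus strand: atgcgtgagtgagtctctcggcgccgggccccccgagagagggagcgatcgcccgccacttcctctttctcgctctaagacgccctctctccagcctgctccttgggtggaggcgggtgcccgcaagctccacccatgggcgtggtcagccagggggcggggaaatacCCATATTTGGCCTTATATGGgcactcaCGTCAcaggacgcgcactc
Dusp8, chr7:142095285-142095534, minus strand: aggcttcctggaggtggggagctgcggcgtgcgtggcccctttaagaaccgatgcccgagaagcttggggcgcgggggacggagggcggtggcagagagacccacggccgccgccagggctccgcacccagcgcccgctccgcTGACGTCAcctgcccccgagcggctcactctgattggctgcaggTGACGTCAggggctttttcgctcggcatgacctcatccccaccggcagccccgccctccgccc

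Motifs were searched on both strands in the 250 bases before the RefSeq start. The CRE TGACGTCA, bound by CREB and ATF factors, was present in 2 of 9 members, once in Dusp1 and at 2 places in Dusp8, against 1.55% of 32817 promoters of the same length. Its first part TGACG, which overlaps the full site, was present in 4 of 9 members (Dusp1, Dusp5, Dusp8 and Dusp16), against 17.8% of promoters. The CArG box was present in Dusp5 alone, as 2 adjoining sites, against 1.47% of promoters. The GC box GGGCGG was present in 7 of 9 members, against 32.7% of promoters. The AP-1 site TGANTCA (6.75% of promoters), the NF-kB site (3.90%), the ETS core CCGGAAG (6.91%) and the TATA box TATAAA (12.4%) were found in none of the 9 windows. Dusp2, which was as high as Dusp1, had 3 GC boxes and none of the other motifs there. A match describes letters in this window and was not tested as a binding site.

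Libraries held 12401783, 18317179 and 18164629 expected counts in annotated genes in replicates 1, 2 and 3. Expected counts are reads shared out among the transcripts they could come from, and TPM, a measure of transcript abundance, is that number per base of effective length, scaled to a fixed sum. Library input was 1 µg of RNA in replicate 1, 250 ng in replicate 2 and 500 ng in replicate 3, and an effect of input cannot be told apart from one of the replicate. Macrophage markers were all above the 1 TPM floor used below (9 of 9, with a summed level of 1149 to 1385 TPM per library). The defining lymphoid markers Cd3e, Nkg7 and Ncr1 were listed at 0. Of the 10 lymphoid markers, Cd4 alone was above the floor in the gene table (7.33 ± 0.757 TPM, SD, n = 3), and the list summed to 7.09 to 8.60 TPM per library. None of 8 granulocyte and mast cell markers, 5 dendritic cell markers or 7 stromal, endothelial and epithelial markers was called above it in the gene table. Those lists summed to at most 1.72, 2.42 and 3.41 TPM in any library. The second transcript table, a separate quantification of the same libraries, called more of these markers. It called 3 of 10 lymphoid markers, with Cd3d (15.4 ± 2.60 TPM) and Cd8a (2.63 ± 0.151) beside Cd4, and 1 of 8 granulocyte and mast cell markers, Mpo (1.74 ± 0.445). It also called 2 of 5 dendritic cell markers, Zbtb46 (1.90 ± 0.162) and Siglech (2.01 ± 0.432), and 2 of 7 in the last list, Pecam1 (9.94 ± 0.510) and Col1a1 (1.80 ± 0.180). The part of other cells in the levels below was not tested.

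Dusp1 and Dusp2 were by far the highest of the 10 genes, and the rest lay between 0.247 and 7.76 TPM on average. A gene was called above the floor where its log2(TPM + 0.1) exceeded that of 1 TPM in limma's one-sided moderated test, with Benjamini-Hochberg adjustment over 24180 genes listed above 0 and a threshold of 0.05. By this rule 5 of 10 members were called, Dusp1, Dusp2, Dusp4, Dusp7 and Dusp16, which is 50% beside 51.1% of all genes tested and 61.8% of protein-coding genes tested. Only Dusp1 and Dusp2 passed a floor of 10 TPM, 20% of members beside 18.1% of all genes. Both shares are near those of all genes, so the family as a whole did not stand out from all genes by level. All 10 members are protein-coding, and beside protein-coding genes their share above 1 TPM was lower. A protein-coding share at 10 TPM is not given here. The median of the members' mean levels was 2.41 TPM, beside 2.02 TPM over all genes tested and 4.17 TPM over protein-coding genes tested. In bulk RNA such as this, fewer cells with a transcript and less of it per cell cannot be told apart.

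**Figure D1:**
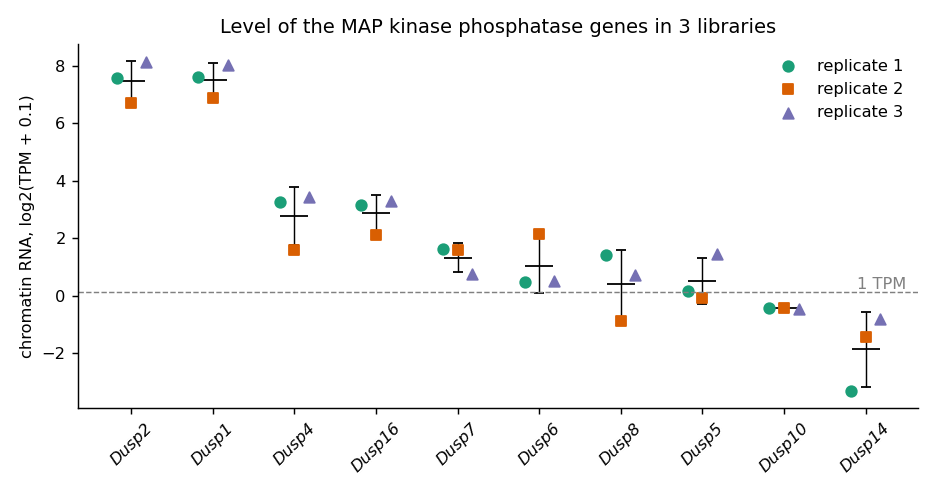
Level of the 10 phosphatase genes on the log2(TPM + 0.1) scale, 1 point per library, with horizontal bars for the mean and error bars for the SD of 3 libraries; the dashed line is 1 TPM. Dusp2 and Dusp1 lie above 100 TPM in every library, and Dusp10 and Dusp14 lie under 1 TPM in every library.

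Among the nuclear enzymes, Dusp2, known for its high expression in activated immune cells, had 190.6, 105 and 279 TPM in replicates 1, 2 and 3 (191 ± 86.7, SD, n = 3). Dusp1, the early-induced phosphatase that acts on p38 and JNK as well as ERK, had 196, 116 and 259 TPM (190.5 ± 71.6). In both genes replicate 3 was highest and replicate 2 lowest. Their ranges overlapped almost fully, and the log2 difference of Dusp2 over Dusp1 within a library was -0.028 ± 0.126 (SD, n = 3). They ranked at the 98.6th and 98.5th percentile of the genes tested by mean TPM. Both were above 1 TPM by more than 7 log2 units: 7.33 (SE 0.322, limma adjusted p = 7.04e-05) for Dusp2 and 7.36 (SE 0.278, limma adjusted p = 5.19e-05) for Dusp1.

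Dusp4, a nuclear enzyme that acts on ERK and JNK, had 9.58, 2.94 and 10.8 TPM (7.76 ± 4.21), so replicate 2 was well under the others. It was above 1 TPM by 2.64 log2 units (SE 0.440, limma adjusted p = 0.00456). The call was lost with no filter on genes at 0 (limma adjusted p = 0.103) and lay at the threshold without replicate 1 (limma adjusted p = 0.0499). The step from Dusp1 down to Dusp4 was the widest between neighbours in the order of levels, 4.73 ± 0.477 log2 units, and their ranges did not overlap. Dusp5, the nuclear enzyme specific for ERK, had 1.03, 0.85 and 2.62 TPM (1.5 ± 0.974), with replicate 3 set above the others. Its level could not be told from 1 TPM (limma adjusted p = 0.324). Dusp5 was thus close in level to Dusp8, although it shares its class with Dusp1 and Dusp2.

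Among the cytoplasmic ERK phosphatases, Dusp7 had 3.00, 2.94 and 1.57 TPM (2.50 ± 0.809), with replicate 3 lowest. It was called above 1 TPM, by 1.19 log2 units (SE 0.25, limma adjusted p = 0.00987). This call was lost without replicate 1 (limma adjusted p = 0.0673), without replicate 2 (limma adjusted p = 0.0525) or with no filter (limma adjusted p = 0.123). Dusp6, a feedback inhibitor of ERK, had 1.28, 4.32 and 1.32 TPM (2.31 ± 1.74) and was not called (limma adjusted p = 0.0936). Here replicate 2 was the high library, the reverse of Dusp1, Dusp2 and Dusp4. The deposited interval around the Dusp6 estimate was 3.19 to 5.41 TPM in replicate 2 and did not overlap those of replicate 1 (0.856 to 2.17 TPM) and replicate 3 (0.834 to 2.33 TPM). The confidence level of those intervals is not given in the sources used here.

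Among the phosphatases that prefer JNK and p38, Dusp16 had 8.87, 4.27 and 9.74 TPM (7.63 ± 2.94) and was above 1 TPM by 2.73 log2 units (SE 0.298, limma adjusted p = 0.00108). Replicate 2 was again the lowest. Dusp8 had 2.58, 0.44 and 1.55 TPM (1.52 ± 1.07), crossed 1 TPM between libraries and was not called (limma adjusted p = 0.542). It was called without replicate 2 (limma adjusted p = 0.0476). Dusp10 had 0.65, 0.64 and 0.63 TPM (0.640 ± 0.010) from 18, 26 and 24 expected counts, which was under 1 TPM in every library. The atypical Dusp14 was listed at 0 in replicate 1, where 3 counts, the limit that a count of 0 allows, would be 0.269 TPM. Dusp14 had 0.27 and 0.47 TPM in replicates 2 and 3, from 5 and 7 counts. Such limits cover counting error only. Upper bounds of the deposited intervals were 1.27, 1.13 and 1.13 TPM for Dusp10 in replicates 1, 2 and 3. For Dusp14 they were 0.900, 1.03 and 1.32 TPM. All of these bounds but that of Dusp14 in replicate 1 exceeded 1 TPM.

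In the order of mean TPM, Dusp2, Dusp1, Dusp4, Dusp16, Dusp7, Dusp6, Dusp8, Dusp5, Dusp10 and Dusp14, 5 of 9 neighbouring pairs differed by less than the SD of their within-library difference. These were Dusp2 with Dusp1, Dusp4 with Dusp16 (-0.091 ± 0.375 log2 units), Dusp7 with Dusp6 (0.287 ± 0.855), Dusp6 with Dusp8 (0.620 ± 2.12) and Dusp8 with Dusp5 (-0.097 ± 1.16). Besides the step from Dusp1 to Dusp4, the ranges were apart between Dusp16 and Dusp7 (1.54 ± 1.02 log2 units), Dusp5 and Dusp10 (0.950 ± 0.829), and Dusp10 and Dusp14 (1.42 ± 1.33). The order was not tested, and these SDs describe the spread of 3 within-library differences.

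Summed over the 10 genes, the family reached 414, 238 and 566 TPM in replicates 1, 2 and 3. Dusp1 and Dusp2 held 93.8 ± 1.01% of that sum (93.5, 93.0 and 94.9%). By class, the median level per library averaged 96.4 TPM over the 4 nuclear enzymes, 2.41 TPM over the 2 cytoplasmic ERK enzymes and 1.59 TPM over the 3 JNK and p38 enzymes. Differences between classes were taken between medians of the log2 levels, not of TPM, so they are not the log2 ratios of those averages. On that scale the nuclear class was higher than the cytoplasmic ERK class by 3.92 ± 1.46 log2 units. It was higher than the JNK and p38 class by 4.54 ± 0.505, in 3 of 3 libraries for each comparison. That height rested on Dusp1 and Dusp2, since Dusp4 lay near Dusp16 and Dusp5 near Dusp8.

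Annotated retained-intron transcripts were assigned most of the Dusp1 counts and a smaller part of the Dusp2 counts. In chromatin-bound RNA such a share cannot tell an intron kept in a finished transcript from one not yet removed. Of the expected counts of Dusp1, 95.4, 91.9 and 90.6% were in retained-intron transcripts (92.7 ± 2.48%, SD, n = 3). For Dusp2 the shares were 42.6, 37.3 and 32.4% (37.4 ± 5.07%). The ranges of the 2 genes did not overlap. Among 4642 protein-coding genes with an annotated retained-intron transcript and at least 100 counts, the median share was 28.1%, Dusp1 stood at the 98.5th percentile and Dusp2 at the 61.6th. Dusp16 is the only other member with such an annotated transcript, Dusp16-206, and it took 0.111 ± 0.193% of the gene's counts. The other 7 members have none, and reads from their introns have no annotated transcript to be assigned to.

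The transcript that keeps intron 2, Dusp1-203, held 70.8 ± 3.82% of the Dusp1 counts (88.4 ± 37.3 TPM). Dusp1-204, a shorter model that keeps intron 3, held 21.9 ± 2.49% (91.1 ± 28.9 TPM). The coding transcript Dusp1-202, which shares most of its exon bases with Dusp1-203, was assigned 7.15 ± 2.65% (10.6 ± 7.0 TPM). In Dusp2 the coding transcript Dusp2-201 held 62.6 ± 5.07% (75.6 ± 41.9 TPM), and Dusp2-202, which keeps the intron 2 whose ends are printed above, held 37.4 ± 5.07% (116 ± 46.5 TPM). Dusp2-202 is the shorter model, 756 bases against 1617, so it had fewer counts and yet more TPM. With coding transcripts alone, Dusp1 had 7.25, 6.80 and 19.0 TPM and Dusp2 had 65.2, 39.8 and 122 TPM. On that measure Dusp2 was the higher gene in 3 of 3 libraries, and Dusp1 lay near Dusp4 and Dusp16. The measure rests on how reads from exons shared between transcripts were assigned, so it is not a level of spliced RNA. The equal levels of Dusp1 and Dusp2 at the gene thus hold only with the intron-containing transcripts counted.

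**Figure D2:**
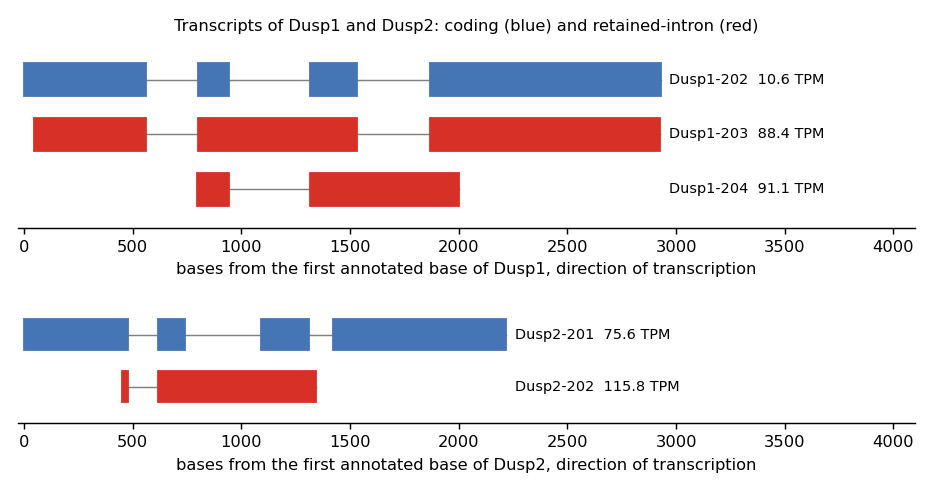
Annotated transcripts of Dusp1 and Dusp2 that held at least 1% of the gene's expected counts, drawn to scale in bases from the first base; boxes are exons, lines are introns, and the mean TPM of 3 libraries is written beside each. Dusp1-203, Dusp1-204 and Dusp2-202 each carry a box across an intron of the coding transcript, and each has a higher mean TPM than that coding transcript.

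**Figure D3:**
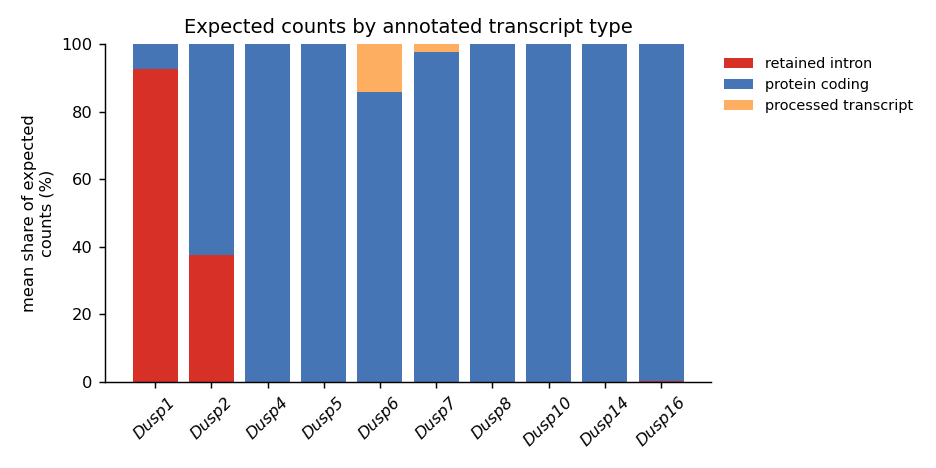
Mean share of each gene's expected counts by annotated transcript type (percent, mean of the libraries with counts: 3 for all genes but Dusp14, which has 2). Retained-intron transcripts take 92.7% in Dusp1 and 37.4% in Dusp2 and are not annotated for 7 genes.

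In the other members the counts fell mainly on coding transcripts. For Dusp4, Dusp5, Dusp8, Dusp10 and Dusp14 this was fixed in advance, since all their annotated transcripts are protein-coding. Dusp6 was split over Dusp6-204 (55.6 ± 14.8%), Dusp6-201 (30.2 ± 7.53%) and Dusp6-202, a noncoding processed transcript (14.2 ± 7.67%). Those shares rest on 26, 100 and 26 expected counts for the gene, and the second transcript table gave Dusp6-201 47.7 ± 25.7% and Dusp6-204 26.1 ± 24.4%. Which coding transcript of Dusp6 leads could therefore not be settled. Dusp16 was split over Dusp16-204 (55.2 ± 2.49%) and Dusp16-201 (43.8 ± 1.57%), with little spread. Dusp7-201 held 96.3 ± 1.19% and Dusp8-201 97.5 ± 4.35% of their genes' counts. Dusp4 and Dusp5 have 1 annotated transcript each, which therefore held all their counts. Dusp10 had all counts of the first table on Dusp10-201, 1 of its 2 annotated transcripts. The 12 counts of Dusp14 in the first table fell on Dusp14-202 and Dusp14-203. The second table, with its own estimated counts, put all of those for Dusp14 on Dusp14-201.

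Most members kept their level in the second transcript table, and 3 differed by more than 1.5 times. Dusp7 had 14.6, 12.9 and 6.61 TPM there, 4.54 times its mean in the gene table, and so passed Dusp4 (7.59 ± 4.36 TPM there) in the order of mean levels. Dusp16 had 18.3, 8.81 and 22.6 TPM, 2.17 times its mean, and passed Dusp4 too. Dusp8 had 3.71, 1.17 and 3.45 TPM, 1.82 times its mean, and was called above 1 TPM there (limma adjusted p = 0.0307). The call count became 6 of 10, 60% beside 57.5% of all genes in that table. The order of libraries within Dusp7, Dusp8 and Dusp16 was the same in both tables.

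**Figure D4:**
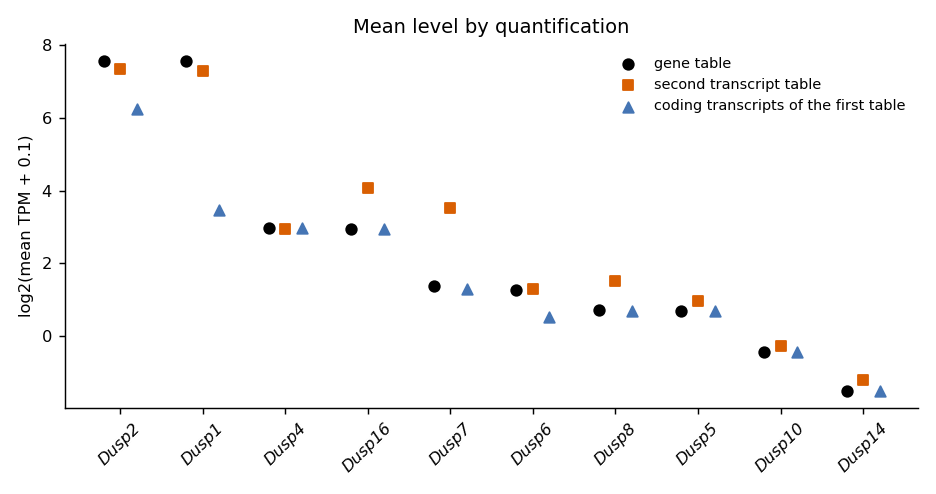
Mean level of each gene on the log2(TPM + 0.1) scale over 3 libraries in the gene table, in the second transcript table, and over coding transcripts of the first transcript table. Dusp1 is the gene that falls most when coding transcripts alone are counted (190.5 against 11.0 TPM), and Dusp7 is the gene that rises most in the second table (2.50 against 11.4 TPM).

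The members differed between libraries more than most genes did. For 9 members with enough counts (all but Dusp14), the SD of log2 CPM (counts as a share of the library, scaled by edgeR's TMM factors) had a median of 0.776, beside 0.248 over 14140 genes. Dusp8 (1.11), Dusp4 (1.06) and Dusp6 (0.935) had the widest spread, at the 99.3rd, 99.1st and 98.3rd percentile of all genes. Dusp1 (0.677) and Dusp2 (0.776) stood at the 93.8th and 96.1st percentile. Dusp10 was the exception, with an SD of 0.037, smaller than its counting error of 0.307. Leaving out replicate 2 brought the median SD of the members to 0.244. The SD did not fall in every member: it rose in Dusp5 (0.866 to 0.922), Dusp7 (0.539 to 0.743) and Dusp10 (0.037 to 0.045). The median over all genes for the same libraries is not given here, so 0.244 cannot be set beside 0.248.

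Replicate 2, which had the least input RNA, was lower than the mean of the other libraries by at least 1 log2 unit of CPM in 5 of 9 members, beside 3.66% of all genes. These were Dusp8 (-1.92), Dusp4 (-1.83), Dusp2 (-1.23), Dusp1 (-1.13) and Dusp16 (-1.13). Dusp5 fell just short of that limit (-0.983). Dusp6 went the other way (1.57), and 2.36% of all genes were higher by as much. Dusp7 (0.215) and Dusp10 (-0.034) showed little difference, and the median over protein-coding genes was 0.038. The limit of 1 log2 unit was chosen after these values were seen. On the TPM scale the difference of Dusp1 was -0.953, and the other 4 stayed past the limit. Replicate 3 was higher than the mean of the other libraries by at least 1 log2 unit of CPM in 3 of 9 members. These were Dusp2, Dusp4 and Dusp5, beside 1.35% of all genes, while Dusp6 was lower there by as much (1.36% of all genes).

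**Figure D5:**
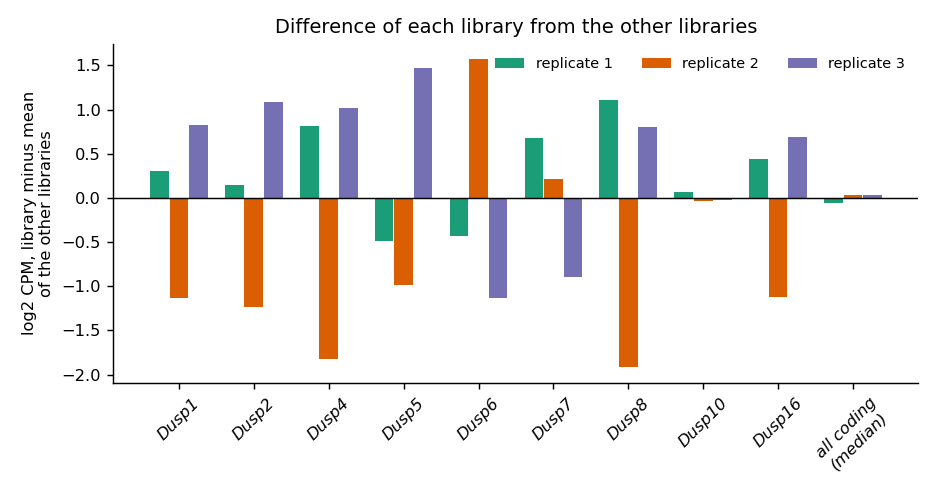
Difference in log2 CPM between each library and the mean of the other libraries, for 9 phosphatase genes and for the median protein-coding gene. Replicate 2 bars reach from -1.13 to -1.92 for Dusp1, Dusp2, Dusp4, Dusp8 and Dusp16 and 1.57 for Dusp6, whereas the median gene stays near 0.

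The same library was also low in some transcription factors that MAP kinases act on. Of 19 such genes with enough counts, 6 were at least 1 log2 unit lower in replicate 2 than the mean of the other libraries, beside 3.66% of all genes. These were Fosb, Fosl2, Egr1, Egr2, Egr3 and Atf3. Egr1, an immediate-early factor, had 171, 54.8 and 219 TPM, and Atf3, a stress-induced factor, had 88.2, 28.7 and 84.1 TPM. Fosb (0.50, 0.84 and 10.8 TPM) and Fosl2 (4.06, 5.52 and 25.3 TPM) were lower still in replicate 1. They passed the limit through a high replicate 3 and do not show replicate 2 as the low library. None of the 9 MAP kinases, 7 MAP kinase kinases and 13 MAP kinase kinase kinases with enough counts passed that limit in either direction, and of 10 MAP kinase-activated kinases only Mapkapk2 did (98.8, 36.8 and 93.4 TPM). Of 9 macrophage markers Cd14 alone passed it (94.1, 62.8 and 245 TPM), lowest in replicate 2 but with replicate 3 far above both others. The part of input RNA in these differences was not tested.

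The genes most like Dusp2 across the 3 libraries, by Euclidean distance of log2(TPM + 0.1) among 15119 other protein-coding genes, were Cdkn1a (distance 0.0998), Dusp1 (0.184), Nlrp3 (0.221), Gadd45b (0.343) and Skil (0.390). Cdkn1a, a cell cycle inhibitor, had 179.8, 102 and 273 TPM, and Nlrp3, an inflammasome sensor, had 218, 112 and 272.5 TPM. Each had the order of Dusp2, with replicate 2 lowest and replicate 3 highest. The genes nearest to Dusp8, the member with the widest spread, were Hddc3 (0.462), Itgb7 (0.509), Dio2 (0.511), Methig1 (0.586) and Chac1 (0.593). Likeness over 3 libraries takes in level as well as pattern and says nothing about shared control.

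Of the wider pathway 69 of 90 listed genes were called above the floor in the gene table and 76 in the second table, beside 51.1% of all genes and 61.8% of protein-coding genes tested in the gene table and 57.5% of all genes in the second. The counts by list that follow are from the gene table and are read against the same shares. Upstream, all 13 MAP kinase kinase kinases were called, among them Map3k8 (127 ± 22.2 TPM), which links Toll-like receptors to ERK, and Araf (59.3 ± 3.54). Of 7 MAP kinase kinases 6 were called, with Map2k2 (46.4 ± 9.09 TPM), Map2k5 (35.4 ± 0.829) and Map2k1 (24.9 ± 3.69) highest and Map2k6 not called (1.72 ± 0.775 TPM, limma adjusted p = 0.0752). Of 11 MAP kinases 7 were called. They included the atypical kinase Mapk6 (90.0 ± 27.7 TPM) and the p38 gene Mapk14 (51.4 ± 2.41). Mapk10 (0.133 TPM), Mapk11 (1.41) and Mapk12 (0.463) were not called, and Mapk13 was listed at 0. Mapk12 (3.54 ± 1.18 TPM) and Map2k6 (1.86 ± 0.466) were called in the second table. Dusp1 and Dusp2 had a higher mean TPM than any of the 11 kinase genes.

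Downstream, all 10 MAP kinase-activated kinases were called, led by Mknk1 (117 ± 13.2 TPM), Mapkapk2 (76.3 ± 34.3) and Mapkapk3 (46.2 ± 3.97). Of 20 transcription factors 18 were called, with Egr1 (148 ± 84.5 TPM), Junb (144 ± 42.5) and Fos (67.0 ± 44.99) highest. Fosb was not called (0.50, 0.84 and 10.8 TPM, limma adjusted p = 0.428), and Fosl1 was listed at 0.

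The other listed phosphatase genes and the Sprouty and Spred genes were lower than Dusp1 and Dusp2, and not all of them encode inhibitors of MAP kinases. Of 14 other dual-specificity phosphatase genes 6 were called, led by Dusp11 (75.2 ± 5.50 TPM), an RNA phosphatase, Dusp3 (13.8 ± 3.81) and Styx (7.69 ± 0.470), a catalytically inactive relative. The second table called 9, with Dusp23 (13.4 ± 0.779 TPM), Styxl1 (3.23 ± 0.257) and Dusp13 (1.91 ± 0.190) added. Dusp9, the third cytoplasmic ERK phosphatase, had 0.04 TPM in replicate 1 and was listed at 0 in the others. Of 8 serine/threonine and tyrosine phosphatases that act on MAP kinases 6 were called, with Ppp2ca (33.3 ± 4.27 TPM), Ppm1b (23.9 ± 0.900) and Ppm1a (17.8 ± 1.86) highest. Ptpn5 was not called (1.21 ± 0.378 TPM) and Ptprr was listed at 0. The second table called all 8, with Ptprr at 6.95 ± 1.00 TPM and Ptpn5 at 3.55 ± 1.70, so for Ptprr the tables disagreed. Of 7 Sprouty and Spred genes, feedback inhibitors of the path to ERK, 3 were called: Spred1 (32.5 ± 12.7 TPM), Spred3 (3.47 ± 0.254) and Spred2 (1.94 ± 0.480). Spry1, Spry2 and Spry3 had 0.667 TPM or less on average, and Spry4 was listed at 0.

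In build mm10, the leading coding transcripts of Dusp2 and Dusp1 are the shortest of the family on the genome, 2218 bases at chr2:127336159-127338376 and 2930 bases at chr17:26505590-26508519, with 4 exons each. Those of Dusp10 (41256 bases, chr1:184034381-184075636) and Dusp16 (53839 bases, chr6:134737496-134791334) are the longest. Dusp4 (chr8:34807297-34819894, plus strand) spans 12598 bases, Dusp5 (chr19:53529109-53542431, plus strand) 13323, Dusp6 (chr10:99263231-99267489, plus strand) 4259, Dusp7 (chr9:106368632-106375724, plus strand) 7093, Dusp8 (chr7:142079490-142095272, minus strand) 15783 and Dusp14 (chr11:84048041-84068357, minus strand) 20317. Over the 10 genes, span and mean TPM had a Spearman rho of -0.649, and -0.564 with coding transcripts alone. This is a description over genes of the same 3 libraries, and Dusp16 departed from it, with the longest span and the fourth highest level.

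Some members share bases with genes on the opposite strand, and whether reads were counted by strand is not given in the sources used here. Dusp1 shares exon bases with Ergic1 (13.0 ± 0.323 TPM), through Dusp1-201, which held 0% of the Dusp1 counts. The partners that share exon bases with Dusp5 and Dusp8, AC137853.2 and Gm32786, were listed at 0. The span of Dusp16 holds the antisense gene Gm36328 (2.97, 1.08 and 5.61 TPM), which shares no exon bases with it and was also lowest in replicate 2. Reads of such pairs may not be separable.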

How the data were processed

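The deposited gene tables and first transcript tables hold expected counts and TPM, per the file headers, in the column layout that RSEM writes, with posterior mean TPM and interval bounds beside them. In the deposited second transcript tables the values are estimated counts with TPM, laid out as kallisto writes them. Per the labels the assembly is mm10, and the deposited text names the GENCODE M21 annotation. Rows naming no gene (26345) took 0.401 to 1.05% of the counts and were left out.

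Earlier results of these data were known when the genes and lists were chosen. The levels of the 10 members were not used to choose them. Levels were tested with limma 3.58.1 on log2(TPM + 0.1). Spread was taken with edgeR 4.0.16 on expected counts rounded to whole numbers, for 14140 genes kept by its filter, and 3 counts equalled 0.164 to 0.242 CPM. Both fits were tested on simulated data. Pairs of libraries differed beyond sampling noise (chi-square per degree of freedom 40.1 to 75.9). Alternatives were DESeq2 1.42.0 size factors, a 10 TPM floor, no filter, the second table, posterior mean TPM, CPM, leaving out each replicate and, added after seeing the data, coding transcripts alone.

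Named genes are all members, the 3 highest of each pathway list and those not called where 5 or fewer, transcripts with at least 10% of a gene's counts, and the 5 nearest genes of Dusp2 and Dusp8; genes low in replicate 2, marker genes, overlapping genes, Dusp9 and genes called only in the second table were named after their values were seen. Some genes that this rule names are not reported here. Protein features were not computed here.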

Additional observations from a re-analysis of the deposited data

How the results depend on the processing

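No paired analysis was possible because the study has 1 group. The members called above 1 TPM numbered 2 with a 10 TPM floor and 3 with no filter (Dusp4 and Dusp7 were lost, with limma adjusted p of 0.103 and 0.123). They numbered 9 on TMM-scaled CPM, which is not corrected for length, and 4 to 5 when a replicate was left out. Among these alternatives, the share of all genes called is given only for the 10 TPM floor (18.1%) and the second table (57.5%). Counts of members or pathway genes under the others therefore cannot be read against all genes. Dusp6 was called with posterior mean TPM alone among the TPM alternatives (limma adjusted p = 0.0197). The share held by Dusp1 and Dusp2 was 87.4% in the second table, 85.7% on CPM, 77.7% over coding transcripts alone, and 93.2 to 94.2% without a replicate. The nuclear class exceeded the cytoplasmic ERK class by 2.28 log2 units over coding transcripts and by 3.33 to 4.74 without a replicate. It exceeded the JNK and p38 class by 3.59 in the second table, 3.34 on CPM, 2.47 over coding transcripts and 4.30 to 4.80 without a replicate. The retained-intron share of Dusp1 was 89.7% in the second table and 91.3 to 93.7% without a replicate, and that of Dusp2 was 34.9 to 39.9%. The median SD of the members was 0.244 to 1.09 without a replicate, and pathway genes above 1 TPM, 69 in the report, numbered 66 to 68. They numbered 62 with no filter, 65 over coding transcripts alone, 72 on CPM, 74 with posterior mean TPM and 76 in the second table. Dusp10, under 1 TPM in every library, was called above 1 on CPM (limma adjusted p = 0.0305). Beyond what an alternative's own construction shows, the cause of a shift was not tested. Depth limits Dusp10 and Dusp14, with 26 counts or fewer per library.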
